A study of Mus musculus with 6 samples.

Results

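The genes described here are 60 genes of the mitotic spindle, the kinetochore and cytokinesis, chosen by name for their roles in cell division. The choice used no threshold on a measured value but was made with earlier results of these data known. Of the 60 genes, 57 had a probe that carried their symbol alone, out of 19938 genes with such a probe. Ccnb1 had none, Kifc1 shared its only probe with Kifc5b, and Sgol1 was present under its newer symbol, Sgo1, and is given separately. RNA came from N2A cells, a mouse neuroblastoma line, and was hybridised to Affymetrix Mouse Gene 1.0 ST arrays. Cells were transiently transfected with a Pbcas4 shRNA, a short hairpin RNA directed at the transcribed unitary pseudogene Pbcas4, or with a scramble control hairpin, and the study asked how transcript levels differ when Pbcas4 is reduced. According to the methods, both hairpins were expressed from a U6 promoter in a modified pll3.7 vector, transfections were made in triplicate, and cells were harvested after 72 h. There were 3 Pbcas4 shRNA arrays and 3 scramble arrays. Every value is on the log2 scale, so a difference of 1 is a 2-fold change, and differences are Pbcas4 shRNA minus scramble.

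In dividing cells, CDK1 with its cyclins starts mitosis, kinetochores attach each chromosome to spindle microtubules, and the spindle checkpoint holds back the anaphase promoting complex until all chromosomes are attached. That complex then marks securin and cyclin B for destruction, separase cuts cohesin, and the central spindle and contractile ring divide the cell. Many of these genes are transcribed mainly in G2 and mitosis, and their promoters often hold a CCAAT box and a cell cycle genes homology region, a short element bound by the MuvB complexes.

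The promoters of 6 genes described in full are shown as examples. The letters TTTGAA, 1 form of the homology region, occur in all of them on either strand, and CCAAT in all but Kif15. Such a match in letters does not show that the element is in use. Promoters were taken from RefSeq (GRCm38.p6), from 250 bases before to 50 after each start, and were found for 50 of the 57 genes. Each line gives the 90 bases directly before the start in the direction of transcription, with TTTGAA and CCAAT, or their reverse complements, in capitals. The regions were chr10:69352913-69353002 on the minus strand for Cdk1, chr4:118437344-118437433 on the minus strand for Cdc20, chr15:102296203-102296292 on the plus strand for Espl1, chr19:37376292-37376381 on the plus strand for Kif11, chr9:122950991-122951080 on the plus strand for Kif15 and chr11:99024190-99024279 on the minus strand for Top2a.
Cdk1: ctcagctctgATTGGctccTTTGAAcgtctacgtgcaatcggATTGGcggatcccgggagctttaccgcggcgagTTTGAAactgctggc
Cdc20: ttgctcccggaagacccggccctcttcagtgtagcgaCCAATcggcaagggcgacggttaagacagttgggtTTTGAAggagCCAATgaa
Espl1: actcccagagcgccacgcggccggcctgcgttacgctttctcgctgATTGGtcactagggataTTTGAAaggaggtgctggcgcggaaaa
Kif11: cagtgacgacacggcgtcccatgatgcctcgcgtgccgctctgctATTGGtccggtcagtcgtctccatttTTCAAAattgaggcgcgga
Kif15: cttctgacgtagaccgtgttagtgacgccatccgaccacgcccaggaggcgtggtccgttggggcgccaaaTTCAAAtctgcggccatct
Top2a: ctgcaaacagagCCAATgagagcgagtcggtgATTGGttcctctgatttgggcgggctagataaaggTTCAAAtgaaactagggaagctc

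By mean, 55 of the 57 mitotic genes were higher with the Pbcas4 shRNA than with the scramble hairpin, beside 51% of all 19938 genes. The median difference was 0.70, against 0.003 over all genes, and single genes ranged from -0.19 for Racgap1 to 1.10 for Kif15. No gene passed the test. With limma and Benjamini-Hochberg adjustment, 0 of the 57 genes had an adjusted p under 0.05 with a difference over 0.5, beside 0 (0%) of all genes, and the adjusted p of the 57 genes lay between 0.410 and 0.992. The arrays hold bulk RNA, so a larger share of cycling cells and more of these transcripts per cell cannot be told apart.

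For these genes the scramble arrays were spread far more widely than the shRNA arrays. The mean over the 57 genes was 11.57, 11.45 and 11.41 in shRNA replicates 1, 2 and 3, and 11.45, 10.73 and 10.37 in scramble replicates 1, 2 and 3. Scramble replicate 1 thus sat at the level of the shRNA arrays, while scramble replicates 2 and 3 lay below all 4 others. The median range over the 3 arrays of a group was 0.20 with the shRNA and 1.11 with the scramble, and the scramble range was the wider one for 56 of the 57 genes, Bub3 being the exception. Over all genes these median ranges were 0.24 and 0.23.

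**Figure D1:**
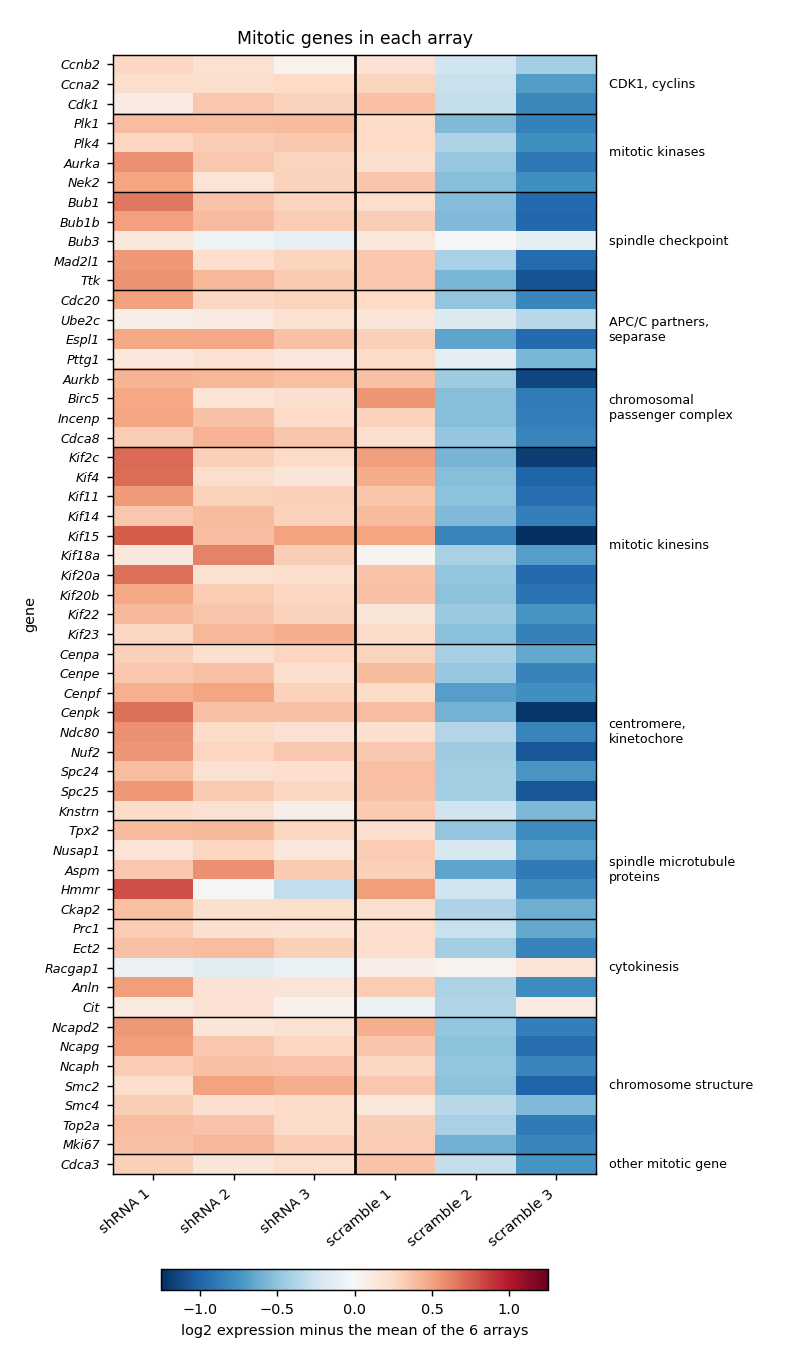
Log2 expression of the 57 mitotic genes (rows, grouped by role) in each of the 6 arrays (columns), as the difference from the gene's mean over the 6 arrays, from blue (lower) to red (higher). Scramble replicate 1 has the colours of the shRNA arrays, and scramble replicate 3 is the lowest array for 55 of the 57 genes.

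At an unadjusted p under 0.05, 26 of the 57 genes (45.6%) were higher, beside 6.22% of all genes, and 1 gene, Racgap1, was lower, beside 5.46% of all genes. The count of 26 changed when any single array was left out. It was 4, 2 and 7 without shRNA replicate 1, 2 and 3, beside 5.88%, 3.91% and 3.28% of all genes. The median difference of the 57 genes was then 0.63, 0.70 and 0.72, beside 0.70 with all arrays. Each such fit has 1 array fewer, so a fall in the count need not come from the values of that array. The count was 53, 1 and 3 without scramble replicate 1, 2 and 3, beside 11.4%, 2.44% and 2.90% of all genes. The counts of 1 and 2 were no larger a share of the 57 genes than of all genes. Racgap1 stayed lower at that threshold without scramble replicate 1 when a trended and robust variance was used. With the variance of the main fit it was no longer lower when any single array was left out. Nor was it lower at that threshold with each array centred on its median, or with the replicate number as a block. With that block the count of higher genes was 46, beside 7.20% of all genes. The 3 shRNA values lay above the 3 scramble values for 19 genes (33.3%), beside 9.13% of all genes, and for 53 genes once scramble replicate 1 was left out, beside 20.3% of all genes. For such a gene an exact permutation test over the arrays, two-sided, gave a p of 0.1, the smallest that 3 arrays against 3 allow. Each p measures only the spread between these transfections.

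The difference was 0.5 or more for 44 genes, 0.7 or more for 29 genes, and 1 or more for Kif15. Without scramble replicate 3 the median difference over the 57 genes fell from 0.70 to 0.42. Without scramble replicate 1 it was 0.99. It was 0.03 when the shRNA arrays were set against scramble replicate 1 alone, where 35 of the 57 genes had the higher shRNA value. Over all genes that median was also 0.03, with 11440 of 19938 genes higher, so against scramble replicate 1 the mitotic genes lay near the value of all genes.

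The first role is entry into mitosis. Cdk1, the kinase that drives it, measured 12.73, 12.97 and 12.92 in shRNA replicates 1, 2 and 3 and 13.01, 12.33 and 11.83 in scramble replicates 1, 2 and 3. Ccna2, cyclin A2, measured 13.30, 13.30 and 13.33 with the shRNA and 13.36, 12.80 and 12.38 with the scramble, in the same order of replicates, which is kept for every gene that follows. For both genes scramble replicate 1 was the highest of the 6 arrays and scramble replicates 2 and 3 were the lowest. The differences were 0.49 (SE 0.28, limma adjusted p = 0.634) for Cdk1 and 0.46 for Ccna2. Ccnb2, a B-type cyclin, measured 12.61, 12.54 and 12.39 with the shRNA and 12.52, 12.09 and 11.92 with the scramble, a difference of 0.33. Its scramble replicate 1 fell inside the shRNA range, so the groups overlapped.

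Among the mitotic kinases, Plk1, the Polo-like kinase that acts at centrosomes, kinetochores and the midzone, had the tightest shRNA values. It measured 12.62, 12.62 and 12.63 with the shRNA and 12.48, 11.69 and 11.39 with the scramble. Its groups did not overlap, and the difference was 0.77 (SE 0.26, limma adjusted p = 0.431). Aurka, Aurora A, which builds spindle poles, measured 12.09, 11.85 and 11.79 with the shRNA and 11.72, 11.04 and 10.62 with the scramble, a difference of 0.78. Plk4, the kinase of centriole duplication, measured 11.80, 11.84 and 11.87 with the shRNA and 11.78, 11.15 and 10.77 with the scramble, a difference of 0.61. Neither of these overlapped between the groups, although scramble replicate 1 came within 0.1 of the lowest shRNA array for both. Nek2, a centrosome kinase, differed by 0.63 and overlapped.

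In the spindle checkpoint, Ttk, also called Mps1, the kinase that starts checkpoint signalling at kinetochores, differed most. It measured 10.56, 10.42 and 10.33 with the shRNA and 10.34, 9.43 and 8.92 with the scramble, a difference of 0.88. Bub1, a kinetochore kinase of the checkpoint, measured 12.68, 12.38 and 12.30 with the shRNA and 12.25, 11.49 and 11.06 with the scramble, a difference of 0.86 (SE 0.30, limma adjusted p = 0.433). The groups were apart for Bub1 and overlapped for Ttk, by scramble replicate 1 alone. Bub3, the partner that carries Bub1 and BubR1 to kinetochores, did not follow them. It measured 12.54, 12.33 and 12.29 with the shRNA and 12.53, 12.39 and 12.29 with the scramble. Its difference was -0.01 (SE 0.11, 95% interval -0.27 to 0.25), and its sign turned to 0.01 with each array centred on its median, to 0.02 without shRNA replicate 2, to 0.04 without shRNA replicate 3 and to 0.05 without scramble replicate 1. Bub1b and Mad2l1, which make up part of the checkpoint complex that inhibits Cdc20, differed by 0.82 and 0.68.

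The partners of the anaphase promoting complex split in size. Espl1, separase, the protease that cuts cohesin, measured 11.00, 10.99 and 10.87 with the shRNA and 10.81, 9.85 and 9.53 with the scramble, a difference of 0.89 (SE 0.31, limma adjusted p = 0.435). Cdc20, which activates the complex in mitosis, measured 11.34, 11.09 and 11.11 with the shRNA and 11.08, 10.34 and 10.01 with the scramble, a difference of 0.70. Neither overlapped between the groups. Ube2c, the ubiquitin-conjugating enzyme of the complex, measured 11.96, 12.00 and 12.08 with the shRNA and 12.04, 11.71 and 11.54 with the scramble, a difference of 0.25. Pttg1, securin, the inhibitor of separase, differed by 0.31, and both of these overlapped. Sgo1, shugoshin, which protects centromeric cohesin from removal, measured 11.42, 11.27 and 11.26 with the shRNA and 11.18, 10.20 and 9.64 with the scramble. That difference was 0.98 (SE 0.36, limma adjusted p = 0.459), with no overlap, and is not counted among the 57.

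The chromosomal passenger complex corrects wrong attachments and later sits at the midzone. Its kinase Aurkb, Aurora B, measured 12.28, 12.26 and 12.23 with the shRNA and 12.22, 11.40 and 10.71 with the scramble, a difference of 0.81 (SE 0.35, limma adjusted p = 0.502). Cdca8, borealin, a subunit that targets the complex to centromeres, measured 11.22, 11.34 and 11.26 with the shRNA and 11.12, 10.43 and 10.08 with the scramble, a difference of 0.73. The groups did not overlap for either gene, and scramble replicate 1 lay just under the shRNA arrays. Birc5, survivin, another targeting subunit, measured 10.96, 10.65 and 10.68 with the shRNA and 11.02, 9.95 and 9.60 with the scramble, a difference of 0.57. Its scramble replicate 1 was the highest of the 6 arrays. Incenp, the scaffold, differed by 0.73 and overlapped through scramble replicate 1.

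**Figure D2:**
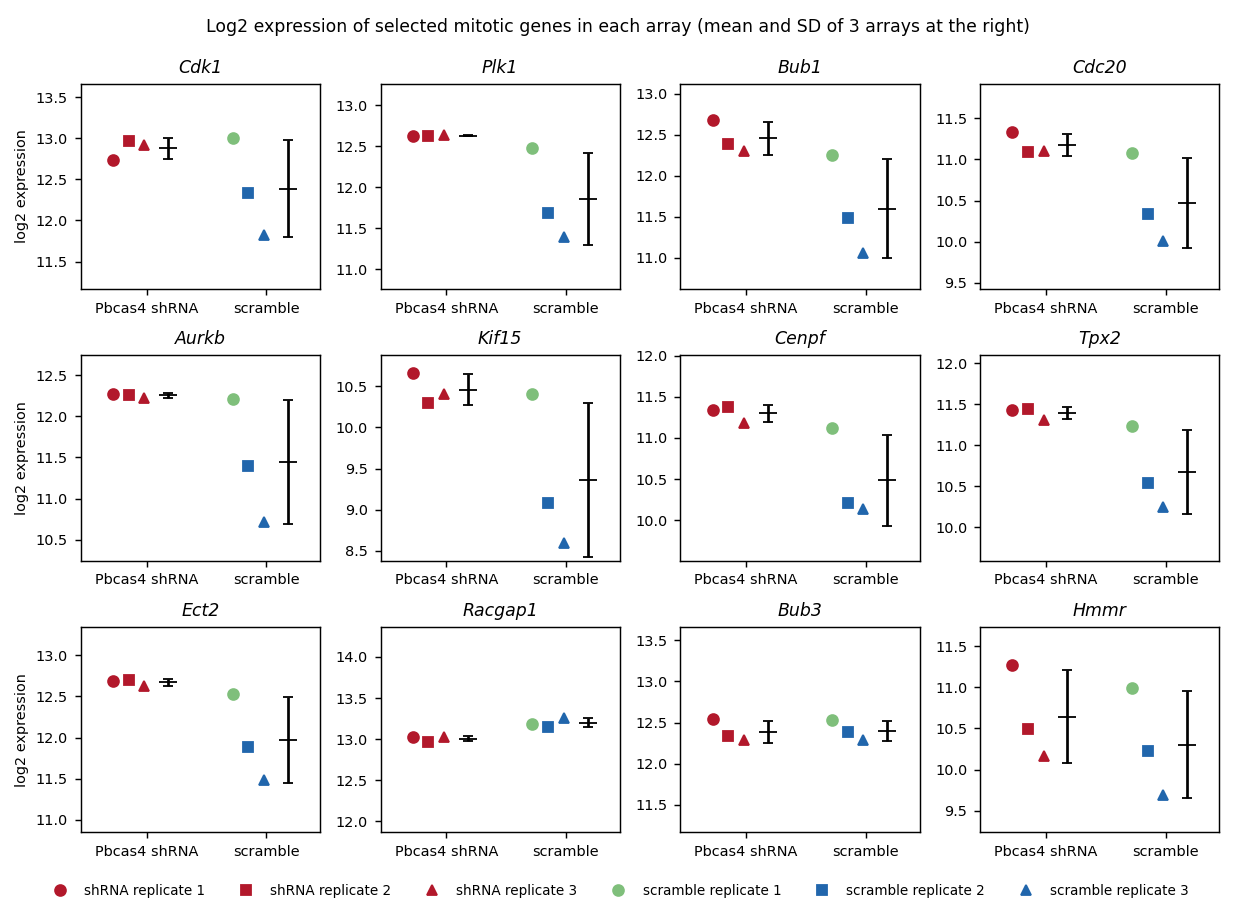
Log2 expression of 12 mitotic genes, 1 per panel, with a point for each array (red, Pbcas4 shRNA; green, scramble replicate 1; blue, scramble replicates 2 and 3; circle, square and triangle are replicates 1, 2 and 3) and the mean and SD of each group of 3 arrays at the right. The vertical axes span the same number of log2 units. In Cdk1, Plk1, Bub1, Cdc20, Aurkb, Kif15, Cenpf, Tpx2 and Ect2 the green point lies near the red ones and the blue points lie below, whereas Racgap1 and Bub3 do not show this order.

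Mitotic kinesins are the motors that slide, cross-link and depolymerise spindle microtubules. Kif15, which helps to keep spindle poles apart, measured 10.67, 10.30 and 10.41 with the shRNA and 10.40, 9.08 and 8.59 with the scramble. Its difference of 1.10 (SE 0.44, limma adjusted p = 0.476) was rank 8 among all genes, and it was 1.62 without scramble replicate 1. Kif2c, MCAK, a depolymerase at centromeres, measured 11.33, 10.92 and 10.86 with the shRNA and 11.14, 10.04 and 9.44 with the scramble, a difference of 0.83. Kif11, Eg5, the motor that separates the poles, measured 12.63, 12.39 and 12.40 with the shRNA and 12.45, 11.59 and 11.15 with the scramble, a difference of 0.75. In all 3 of these genes scramble replicate 1 fell inside the shRNA range and scramble replicate 3 was lowest. Kif14, a kinesin of cytokinesis, measured 10.47, 10.53 and 10.41 with the shRNA and 10.52, 9.58 and 9.27 with the scramble, a difference of 0.68. A second, much dimmer probe of Kif14 (mean 5.15 over the 6 arrays) had a difference of -0.13 with an unadjusted limma p of 0.372. The other 6 kinesins, Kif4, Kif18a, Kif20a, Kif20b, Kif22 and Kif23, differed by 0.70 to 0.76, and Kif18a, Kif22 and Kif23 did not overlap between the groups.

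At centromeres and kinetochores, Cenpk, a subunit of the inner kinetochore network, measured 10.51, 10.18 and 10.19 with the shRNA and 10.20, 9.23 and 8.60 with the scramble, a difference of 0.95. Cenpf, a large protein of the outer kinetochore, measured 11.34, 11.38 and 11.18 with the shRNA and 11.12, 10.20 and 10.13 with the scramble, a difference of 0.82 (SE 0.26, limma adjusted p = 0.426). Of the 9 kinetochore genes only Cenpf (11.1%) had all shRNA values above all scramble values, near the 9.13% of all genes. Cenpa, the histone H3 variant that marks centromeres, measured 11.17, 11.07 and 11.14 with the shRNA and 11.15, 10.45 and 10.23 with the scramble, a difference of 0.52. Ndc80, which binds the microtubule, measured 10.47, 10.14 and 10.09 with the shRNA and 10.11, 9.54 and 9.09 with the scramble, a difference of 0.66. The other subunits of the Ndc80 complex, Nuf2, Spc24 and Spc25, differed by 0.77, 0.52 and 0.75, and Cenpe, the kinetochore kinesin, by 0.62. Knstrn, an adaptor at kinetochores and spindle microtubules, measured 11.92, 11.87 and 11.76 with the shRNA and 12.01, 11.44 and 11.12 with the scramble, a difference of 0.33. There scramble replicate 1 was the highest array.

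Of the spindle microtubule proteins, Aspm, a minus-end protein of the spindle poles, measured 10.81, 11.04 and 10.80 with the shRNA and 10.77, 9.81 and 9.59 with the scramble, a difference of 0.83. Tpx2, the activator of Aurora A that promotes microtubule nucleation, measured 11.43, 11.44 and 11.31 with the shRNA and 11.24, 10.54 and 10.25 with the scramble, a difference of 0.71 (SE 0.24, limma adjusted p = 0.431). Both were free of overlap. Hmmr, a spindle protein that also has a role as a hyaluronan receptor, measured 11.27, 10.49 and 10.17 with the shRNA and 10.99, 10.22 and 9.69 with the scramble, a difference of 0.34 (SE 0.40, limma adjusted p = 0.879). Its 2 groups each spread widely, with replicate 1 highest and replicate 3 lowest in both. Nusap1 and Ckap2, which bind spindle microtubules, differed by 0.38 and 0.53.

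The cytokinesis genes held differences of both signs. Ect2, the exchange factor that activates RhoA at the midzone, measured 12.69, 12.70 and 12.62 with the shRNA and 12.53, 11.89 and 11.49 with the scramble, a difference of 0.70 (SE 0.25, limma adjusted p = 0.437) with no overlap. Anln, anillin, the scaffold of the contractile ring, measured 12.22, 11.88 and 11.86 with the shRNA and 12.02, 11.31 and 10.92 with the scramble, a difference of 0.57. Prc1, which bundles midzone microtubules, measured 11.56, 11.45 and 11.43 with the shRNA and 11.46, 10.97 and 10.61 with the scramble, a difference of 0.47. For Anln and Prc1 scramble replicate 1 lay inside the shRNA range. Racgap1, the GTPase-activating subunit of centralspindlin and the partner of the kinesin Kif23, ran the other way. It measured 13.03, 12.97 and 13.02 with the shRNA and 13.19, 13.15 and 13.26 with the scramble. Every scramble value, that of replicate 1 included, was above every shRNA value. Among the 57 genes this held for 1, beside 1522 of 19938 over all genes. The difference of Racgap1 was -0.19 (SE 0.08, limma adjusted p = 0.488), with an exact permutation p of 0.1 over the arrays. Kif23 itself differed by 0.76. Cit, citron kinase of the midbody, was singled out after its values were seen. It measured 10.35, 10.41 and 10.29 with the shRNA and 10.16, 9.86 and 10.35 with the scramble, a difference of 0.23, and scramble replicate 3 was here the highest of the scramble arrays.

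Chromosome structure was represented by condensin I, topoisomerase and Mki67. Smc2, an ATPase shared by both condensins, measured 11.55, 11.83 and 11.79 with the shRNA and 11.66, 10.82 and 10.33 with the scramble, a difference of 0.79. Ncapg, a condensin I subunit, measured 11.56, 11.37 and 11.31 with the shRNA and 11.39, 10.53 and 10.08 with the scramble, a difference of 0.75. Both overlapped through scramble replicate 1. Smc4, the other condensin ATPase, measured 12.18, 12.08 and 12.11 with the shRNA and 12.01, 11.53 and 11.32 with the scramble, a difference of 0.50 (SE 0.18, limma adjusted p = 0.437) with no overlap. The remaining condensin I subunits Ncapd2 and Ncaph differed by 0.59 and 0.70. Top2a, which decatenates sister chromatids, measured 12.85, 12.82 and 12.70 with the shRNA and 12.77, 12.05 and 11.58 with the scramble, a difference of 0.66. A second, dim probe of Top2a (mean 4.55) had a difference of -0.40 with an unadjusted limma p of 0.216. Mki67, the Ki-67 antigen that coats mitotic chromosomes, measured 12.59, 12.63 and 12.54 with the shRNA and 12.54, 11.62 and 11.40 with the scramble, a difference of 0.73. Cdca3, a mitotic adaptor of a ubiquitin ligase, measured 11.22, 11.08 and 11.14 with the shRNA and 11.28, 10.63 and 10.19 with the scramble, a difference of 0.45. Scramble replicate 1 was again within the shRNA range for Top2a and Mki67, and above it for Cdca3.

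Set side by side, the median differences of the roles with more than 1 measured gene ran from 0.46 to 0.82. They were 0.82 for the 5 spindle checkpoint genes, 0.73 for the 4 passenger complex genes, 0.72 for the 10 kinesins, 0.70 for the 4 kinases and for the 7 chromosome structure genes, and 0.66 for the 9 kinetochore genes. They were lower for the 5 spindle microtubule genes (0.53), the 4 partners of the anaphase promoting complex (0.50), the 5 cytokinesis genes (0.47) and the 3 CDK1 and cyclin genes (0.46). The differences between roles were not tested. Against scramble replicate 1 alone the same medians lay between -0.05, for CDK1 and the cyclins, and 0.10, for the kinases. Against scramble replicates 2 and 3 they lay between 0.69, for cytokinesis, and 1.18, for the checkpoint. Cdca3, the only measured gene outside these roles, differed by 0.45, and by -0.14 against scramble replicate 1 alone.

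The order of the arrays was shared by nearly all of the 57 genes. Scramble replicate 1 was the highest scramble array for 55 genes, beside 34.0% of all genes, and scramble replicate 3 was the lowest of the 6 arrays for 55 genes, beside 17.8% of all genes. Scramble replicate 1 lay within the shRNA range for 28 genes, above it for 9 and below it for 20, beside 54.3%, 18.9% and 26.7% of all genes. The shRNA arrays and scramble replicate 1 all lay above scramble replicates 2 and 3 for 53 genes (93.0%), beside 17.3% of all genes. The exceptions were Bub3, Racgap1, Hmmr and Cit. Scramble replicate 1 exceeded the mean of scramble replicates 2 and 3 by a median of 0.95, and scramble replicate 2 exceeded replicate 3 by a median of 0.37. Across all probes, scramble replicate 1 correlated at 0.990 to 0.993 with the shRNA arrays and at 0.987 to 0.988 with the other scramble arrays. Scramble replicates 2 and 3 correlated at 0.984 to 0.991 with the shRNA arrays and at 0.994 with each other. The shRNA arrays correlated at 0.989 to 0.995 among themselves. These values describe probes that are not independent. The labels put scramble replicate 1 in the scramble group, and it was kept there.

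With scramble replicate 1 left out, 53 genes were higher at an unadjusted p under 0.05 (93.0%), beside 11.4% of all genes, and 0 were called, beside 0 (0%) of all genes. The lowest adjusted p was 0.0614. Plk1 then differed by 1.09 (SE 0.12, limma adjusted p = 0.0614), Cenpf by 1.13 and Espl1 by 1.26. A difference of 1 or more was reached by 28 genes, against 1 gene with all arrays. Of the settings tried, only with array weights estimated from the data, or without scramble replicate 1 and with a trended and robust variance, were any of the 57 genes called, 40 and 33 of them. Under the same settings 3.44% and 1.78% of all genes were called as higher.

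**Figure D3:**
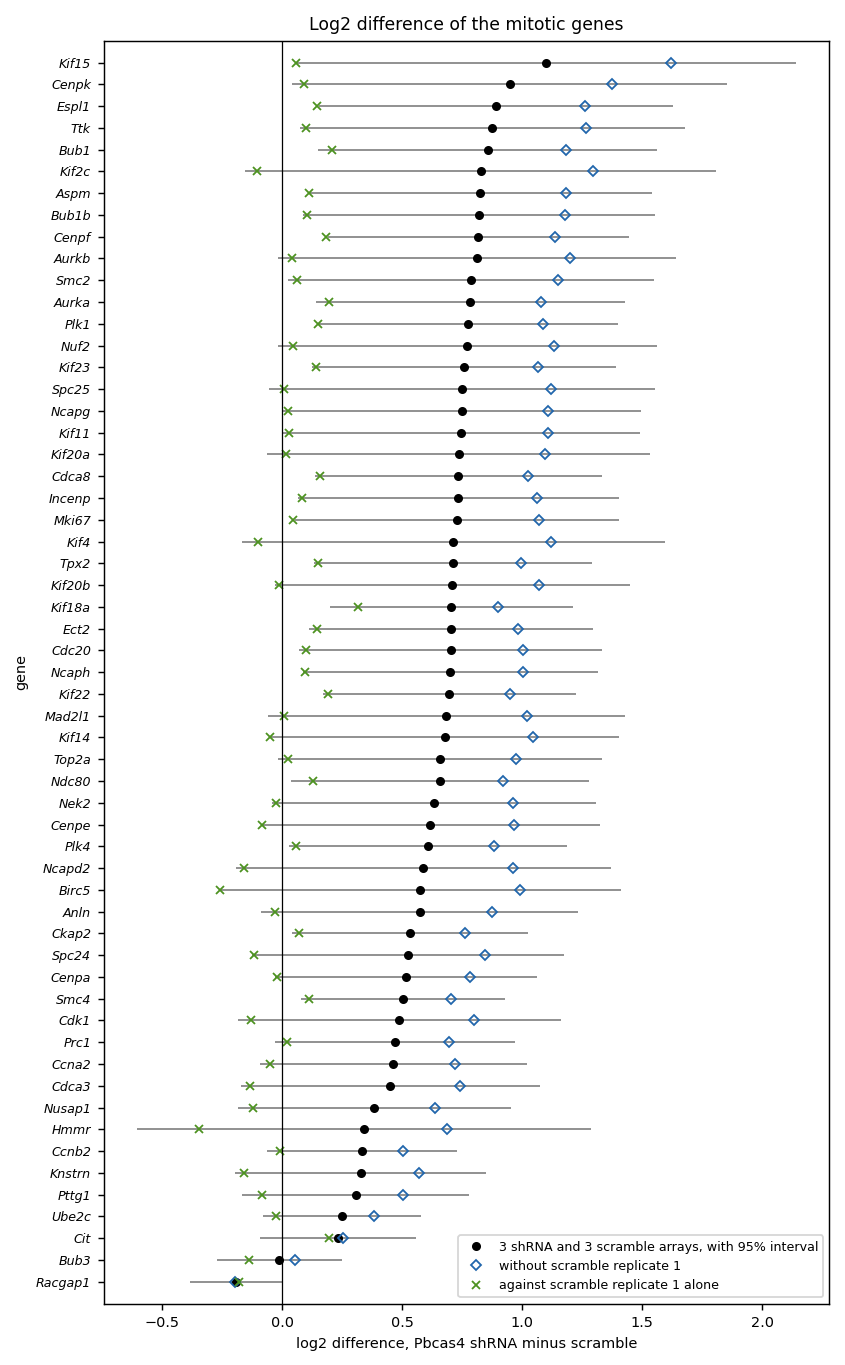
Log2 difference of each of the 57 mitotic genes (rows), Pbcas4 shRNA minus scramble. Black points use all 6 arrays with the 95% interval of the limma fit, blue diamonds leave out scramble replicate 1, and green crosses compare the shRNA arrays with scramble replicate 1 alone. The green crosses gather around 0 (median 0.03) and the blue diamonds lie farther right (median 0.99) than the black points (median 0.70).

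Related gene lists were measured in the same way, and 0 of their genes were called. The counts at an unadjusted p under 0.05 that follow stand beside 6.22% of all genes with the 6 arrays and 11.4% without scramble replicate 1. Of 27 other kinetochore genes 25 had the higher shRNA mean, with a median difference of 0.69. They ran from -0.28 for Zwint, a partner of the Rod-Zwilch-ZW10 complex, and -0.04 for Cenpt to 1.08 for Cenpu and 1.14 for Cenph, 3 subunits of the inner kinetochore. At an unadjusted p under 0.05, 9 were higher and Zwint was lower, and 24 were higher without scramble replicate 1. All 32 other spindle, centrosome duplication and cytokinesis genes had the higher shRNA mean, with a median of 0.56. The smallest were Stmn1 (0.08), stathmin, and Sapcd2 (0.13), and the largest were the kinase Melk (0.97) and Haus6 (1.11), a subunit of augmin. There 11 were higher at an unadjusted p under 0.05, and 29 without scramble replicate 1. A further list of 16 genes held regulators and phosphatase partners of CDK1. It also held Mybl2, Foxm1, Lin54 and Lin9, which are transcription factors or MuvB subunits. The median of the 16 was 0.56. Lowest were Ensa (-0.27), an inhibitor of the phosphatase PP2A-B55, and Fzr1 (-0.12), the Cdh1 activator of the anaphase promoting complex. Highest were Fbxo5 (0.99), the inhibitor Emi1 of that complex, and Mybl2 (1.30), which joins MuvB and had the largest difference of all genes. In that list 4 were higher and Ensa was lower at an unadjusted p under 0.05, and 12 were higher without scramble replicate 1.

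By their medians, 3 further lists lay closer to all genes, although single genes of the cohesin and condensin II list did not. The 12 core subunits of the anaphase promoting complex had a median difference of 0.10, from -0.20 for Anapc4 and -0.18 for Anapc2 to 0.26 for Anapc11 and 0.36 for Cdc23. Of these, 2 (16.7%) were higher at an unadjusted p under 0.05, and 5 (41.7%) without scramble replicate 1. The 16 cohesin and condensin II genes had a median of 0.24, from -0.15 for Mau2, a cohesin loader subunit, and 0.02 for Rad21, the cohesin subunit that separase cuts, to 0.96 for Ncapg2 and 1.06 for Esco2, the acetyltransferase of S phase cohesion. There 3 (18.75%) were higher at an unadjusted p under 0.05, and 11 (68.75%) without scramble replicate 1, beside 11.4% of all genes. Transport kinesins carry cargo in interphase and in axons. Not all genes in the list named for them code for cargo motors. It includes the depolymerase Kif2a and the non-motor subunits Klc1 and Kifap3. The 22 genes of that list had a median of -0.03. Their lowest were Kif3c (-0.76) and Kif5a (-0.51), and their highest were Kif21b (0.27) and Kif13a (0.34), with 1 higher (4.55%) and 3 lower at an unadjusted p under 0.05. Without scramble replicate 1, 2 were higher (9.09%), and both shares were under those of all genes, 6.22% and 11.4%.

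The DNA replication genes, which act in S phase and not in mitosis, gave values like those of the mitotic genes. All 29 had the higher shRNA mean, and the median difference was 0.67, from 0.34 for Orc2, a subunit of the origin recognition complex, and 0.38 for Gins4 to 1.04 for Pola1, the catalytic subunit of DNA polymerase alpha, and 1.11 for Rrm2, a subunit of ribonucleotide reductase. At an unadjusted p under 0.05, 9 were higher, beside 6.22% of all genes, and all 29 were without scramble replicate 1, beside 11.4%. Their median against scramble replicate 1 alone was -0.02.

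**Figure D4:**
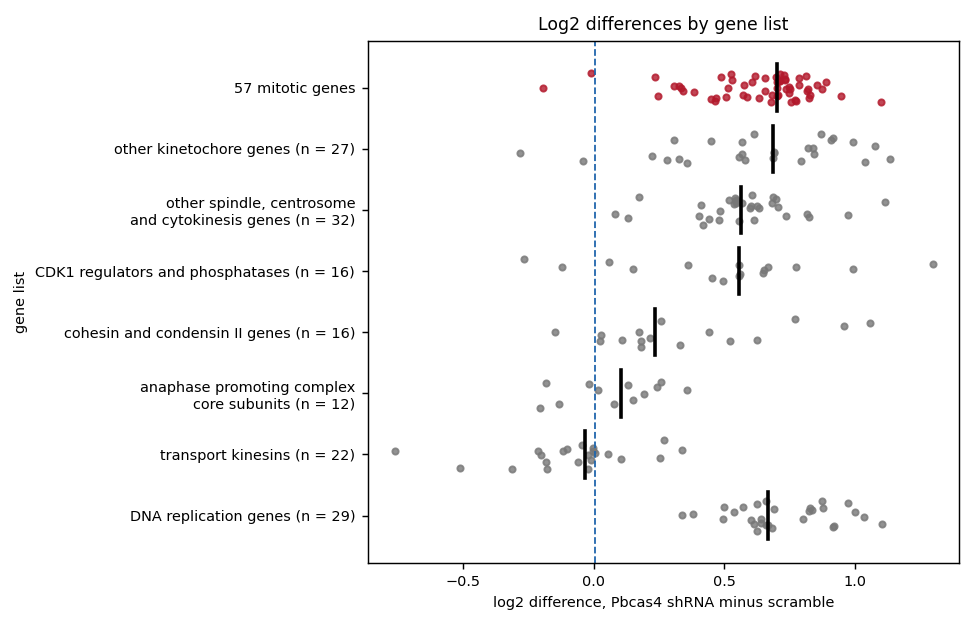
Log2 difference, Pbcas4 shRNA minus scramble, of each gene in the 57 mitotic genes (red) and in 7 related lists (grey), with a black bar at each list's median and a dashed line at the median of all genes (0.003). The mitotic, other kinetochore and DNA replication genes centre near 0.7 and the transport kinesins near 0.

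Markers of the cells were checked beside these values. The mean of 10 measured neuroblastoma markers was 11.27 to 11.45 with the shRNA and 11.71 to 11.97 with the scramble, so the groups did not overlap, with scramble replicate 1 among the higher arrays. By mean 9 of the 10 were lower, and at an unadjusted p under 0.05 these were Th, Dbh and Chgb, of catecholamine synthesis and storage, with differences of -1.08, -1.34 and -1.01. Of the fibroblast, macrophage, epithelial and glial markers 0 passed an unadjusted p under 0.05 with all 6 arrays. Their median differences were 0.01, -0.03, 0.04 and -0.005. Scramble replicate 1 minus the mean of scramble replicates 2 and 3 had medians of -0.26, -0.05, -0.13 and -0.14, beside -0.04 over all genes. The fibroblast marker Pdgfrb measured 8.13, 9.47 and 8.88 with the shRNA and 8.06, 9.62 and 10.52 with the scramble. Its difference was -0.57, and -1.24 without scramble replicate 1 (limma adjusted p = 0.235). The part of any of these in the mitotic gene values was not tested. The probe annotation named no probe for Pbcas4, so the level of the targeted transcript was not analysed here.

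Beyond the 6 promoters shown, 36 of the 50 genes with a promoter held TTTGAA on either strand. By promoter this was 70.9% of 55, beside 17.9% of all 32851 promoters of the same length. TTTAAA, the other form of the homology region, was in 20.0%, beside 13.2%, and either form in 76.4%, beside 27.6%. CCAAT was in 72.7%, beside 37.4%, and a promoter held CCAAT and either form in 63.6%, beside 10.7%. Either form lay within 50 bases of the start in 63.6%, beside 8.3%. The E2F-type letters TTCCCGC and TTGGCGC were in 5.5% and 14.5%, beside 4.6% and 2.5%. All were searched on both strands, where TTTAAA reads the same, and hits of different motifs may share bases. The median log2 difference was 0.70 for the 39 genes with TTTGAA or TTTAAA and 0.68 for the 11 without. Racgap1 and Bub3, the genes with a lower shRNA mean, also held TTTGAA and CCAAT. These matches are letters in a window and not measured binding sites.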

How the data were processed

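The values used were those deposited by the authors, log2 expression per probe of Affymetrix Mouse Gene 1.0 ST arrays, 6 columns with 1 for each sample and 0 columns of other samples. Background correction, summarization and normalization were not given in the sources used here, and no further normalization was applied. Array medians were 7.75 to 7.86, and precision is limited by how many arrays there were. Of 35556 probes, 21789 carried 1 gene symbol, 1621 several and 12146 none. A gene was represented by its single-symbol probe with the highest mean over the 6 arrays.

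Differences were tested two-sided with lmFit and eBayes of limma 3.58.1 (R 4.3.3), and Benjamini-Hochberg adjusted p-values were taken over all probes. Calls needed an adjusted p under 0.05 and a size over 0.5 on the log2 scale, which is how the criterion on variance between conditions in the methods was read. The fit was run on simulated data with noise drawn independently for each value. Those data held no shift shared by many genes of 1 array, so they do not test the fit under the spread seen here. Motifs were counted with Python 3.11.15 and figures drawn with matplotlib 3.10.9.

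The 60 genes, 12 further lists (194 of 201 symbols measured), roles, motifs and tests were chosen with earlier results of these data known. In each role the 2 genes with the largest and the 1 with the smallest difference were given in full. So were Cdk1, Plk1, Aurkb, Bub1, Cdc20, Kif11, Cenpa, Ndc80, Tpx2, Prc1, Birc5, Top2a and Mki67, genes with a lower shRNA mean and genes whose probes differed in sign. Of the 7 related lists the 2 genes at each end were named.

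Replicate numbers are in the sample titles, which do not explain them. After removal of the group means, same-numbered arrays correlated at 0.291, 0.137 and 0.103 across probes, while shRNA replicate 2 and scramble replicate 3 correlated at 0.199. The groups were compared without a block, because the methods name none. The block was an alternative whose count is given beside the first one. Alternatives were quantile normalization, median centring, a trended and robust variance, array weights, the replicate block, a filter on probes under the 50th percentile, the mean of a gene's probes, no criterion on size, each array left out, and both arrays numbered 1 left out.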

Additional observations from a re-analysis of the deposited data

How the results depend on the processing

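Of the 57 genes, 0 were called under every setting tried but these: 40 were called with array weights, where 1320 of all genes were called and the weights, from 0.353 for scramble replicate 1 to 5.32 for shRNA replicate 3, had not converged, and 33 were called without scramble replicate 1 with a trended and robust variance (463 of all genes), a setting chosen after seeing the data. The count of genes higher at an unadjusted p under 0.05, which was 26, became 54 with array weights, 46 with the replicate block, 53 with both arrays numbered 1 left out and 53 without scramble replicate 1 with a trended and robust variance (17.5%, 7.20%, 12.2% and 11.9% of all genes, against 6.22%), and it ran from 1 (without scramble replicate 2) to 53 (without scramble replicate 1) when 1 array was left out. With the replicate block Racgap1 was no longer lower at an unadjusted p under 0.05, and no adjusted call changed. Without scramble replicate 1 and with a trended and robust variance Racgap1 was still lower at that threshold. The count without overlap, which was 19 (9.13% of all genes), became 53 with both arrays numbered 1 left out (26.3% of all genes). It ran from 19 to 53 when 1 array was left out, where 53 was again without scramble replicate 1. The share of all genes then ran from 11.4% to 20.3%. The median difference ran from 0.42 (without scramble replicate 3) to 0.99 (without scramble replicate 1). Bub3, at -0.012, changed sign to 0.014 with median centring and to 0.052 without scramble replicate 1 with a trended and robust variance, and ran from -0.087 to 0.052 when 1 array was left out. The cause of these changes was not tested. No other gene of the 57 changed sign. Arrays give no count of molecules, and 3 arrays a group limit what can be told apart.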
